A study of Mus musculus with 18 samples.

Results

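The constitutive proteasome subunits are the proteins that build the standard proteasome and are made in every cell. They were followed here at the level of messenger RNA in colon epithelial cells of mice with and without the methyl-CpG-binding protein Mbd2. Members were taken by name: each probe whose gene symbol is Psma, Psmb, Psmc or Psmd with a number, without the interferon-inducible Psmb8, Psmb9 and Psmb10 and without pseudogenes, where 4 arrays or more gave a detection p-value below 0.05, the share of negative control probes brighter than the probe. The symbols matched 36 genes (64 probes), and 30 genes (50 probes) passed the detection rule, out of 15757 genes (21938 probes) tested in all. Of the 30, 28 were detected on all 18 arrays, Psmd5 on 17 and Psmd2 on 13. The 6 genes not tested were Psma1, Psma6, Psma8 and Psmb11, each detected on 0 arrays, Psma3, detected on 1, and Psmd3, whose 2 probes were detected on 0 and on 2. Psma8 is a subunit of the testis and Psmb11 one of the thymus, while Psma1, Psma3, Psma6 and Psmd3 belong to the standard particle, so these 4 were detected on too few arrays to be compared.

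The study asked what Mbd2 controls in the gut lining during colitis. Colon epithelial cells were sorted by flow cytometry as cells with EpCAM and without CD45, CD3 and a macrophage surface protein (CD45 marks leukocytes and CD3 T cells). Naive_WT are wild-type mice without treatment and Naive_KO are untreated Mbd2KO mice, which lack Mbd2 in all cells of the body (Mbd2-/- on the C57BL/6 background, with littermate controls where possible). DSS_WT and DSS_KO are the same genotypes given 2% dextran sulphate sodium (DSS) in the drinking water, a polymer that injures the colon lining. The labels give no age for a sample and allow several mice in 1 replicate, so p-values measure the spread between such pools. The 18 arrays gave 16 samples, 4 per group, after 2 repeat arrays were averaged with their namesakes (array 4R with 4 in DSS_WT and 5R with 5 in DSS_KO). The probe for Mbd2 was detected on 0 of 18 arrays (lowest detection p-value 0.151), so the genotype labels were taken as given. Between 18851 and 20618 probes were detected per array, and 29 or 30 of the 30 members. A member's signal rested on a median of 37 to 41 beads per array, with a median bead standard error of 2.61% to 3.87% of the signal.

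The proteasome is the protease that degrades proteins tagged with ubiquitin. Its barrel, the 20S core, is built of outer rings of alpha subunits (Psma genes) and inner rings of beta subunits (Psmb genes), and Psmb5, Psmb6 and Psmb7 carry the cutting sites. The cap, the 19S regulatory particle, holds a ring of ATPases (Psmc genes), which unfold the substrate, and non-ATPase subunits (most Psmd genes), some of which bind or remove ubiquitin. Interferon-gamma induces Psmb8, Psmb9 and Psmb10, which take the places of Psmb5, Psmb6 and Psmb7 in newly built cores. The resulting immunoproteasome cuts peptides suited to MHC class I molecules, and it is abundant in inflamed gut. The constitutive genes are thought to follow other factors, in particular Nfe2l1, which binds the antioxidant response element when proteasome activity falls short.

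Promoters of the exchanged subunits are shown because both sets of genes are compared throughout. Those of Psmb5, Psmb6, Psmb8 and Psmb9 are printed, since they held a match to a motif named here, while the Psmb10 window held 0 matches and Psmb7 had no entry. Each run is the 250 bases before the annotated start of the gene, 5′ to 3′ on the gene's own strand, from RefSeq (GRCm38.p6). Capitals mark matches, on either strand, to TGACNNNGC (the core of the antioxidant response element), TTCNNTTTC (a core of the interferon-stimulated response element), TTCNNNGAA (the GAS element bound by STAT factors) or the CCAAT box. Psmb5 lies at chr14:54617996-54618245 on the minus strand, Psmb6 at chr11:70525107-70525356 on the plus strand, Psmb8 at chr17:34197945-34198194 on the plus strand and Psmb9 at chr17:34187331-34187580 on the minus strand.
Psmb5: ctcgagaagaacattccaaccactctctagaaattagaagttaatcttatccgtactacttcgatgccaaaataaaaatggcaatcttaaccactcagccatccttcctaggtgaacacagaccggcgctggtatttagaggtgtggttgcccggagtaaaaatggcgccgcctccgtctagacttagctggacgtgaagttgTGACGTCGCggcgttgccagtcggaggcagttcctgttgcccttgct
Psmb6: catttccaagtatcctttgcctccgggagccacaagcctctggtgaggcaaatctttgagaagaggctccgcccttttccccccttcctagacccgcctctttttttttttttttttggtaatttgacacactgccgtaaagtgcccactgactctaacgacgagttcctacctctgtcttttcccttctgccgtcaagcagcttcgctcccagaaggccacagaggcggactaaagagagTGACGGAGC
Psmb8: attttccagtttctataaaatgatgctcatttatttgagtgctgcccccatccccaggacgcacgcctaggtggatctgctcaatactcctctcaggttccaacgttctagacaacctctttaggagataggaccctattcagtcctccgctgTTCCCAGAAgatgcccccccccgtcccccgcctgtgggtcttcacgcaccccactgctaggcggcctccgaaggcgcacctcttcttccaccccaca
Psmb9: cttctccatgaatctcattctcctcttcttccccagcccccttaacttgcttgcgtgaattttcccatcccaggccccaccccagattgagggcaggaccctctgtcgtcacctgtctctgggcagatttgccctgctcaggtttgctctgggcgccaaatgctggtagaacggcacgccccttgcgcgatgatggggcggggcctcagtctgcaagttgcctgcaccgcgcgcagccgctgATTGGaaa

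In these windows Psmb5 held TGACGTCGC 47 to 39 bases before the start and Psmb6 held TGACGGAGC 9 to 1 bases before it. Psmb8 held the GAS match TTCCCAGAA 97 to 89 bases before the start, and Psmb9 a CCAAT box on the other strand. The same windows of 250 bases before the start were searched in all genes. The promoter table matched 25 of the 30 members, with 26 promoters, and had 1 promoter for each of the 3 inducible genes. The antioxidant response element core stood in 5 of the 26 member promoters (19.2%, those of Psmb5, Psmb6, Psmc6, Psmd9 and Psmd12), against 10.2% of all 32851 promoters. The interferon-stimulated response element core stood in 3 (11.5%, Psmb3, Psmd4 and Psmd9), against 7.13% of all, and in 0 of the 3 inducible promoters. The GAS element stood in 0 of 26 member promoters, against 7.02% of all, and in 1 of the 3 inducible ones. The CCAAT box stood in 8 (30.8%), against 33.8% of all. These are matches of letters in a short window and say nothing about binding.

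The standard catalytic subunits were nearly level over the 4 groups, while the interferon-inducible ones that replace them spanned several-fold. The log2 signal of Psmb5, the chymotrypsin-like subunit, was 11.05, 10.76, 11.13 and 10.90 in Naive_WT and 11.28, 11.30, 11.05 and 11.02 in Naive_KO. With DSS it was 10.90, 10.75, 10.86 and 10.95 in DSS_WT and 11.06, 11.22, 11.25 and 11.45 in DSS_KO. Every DSS_KO sample was above every DSS_WT sample, and the naive groups overlapped. Psmb6, the caspase-like subunit, read 12.06, 11.78, 11.92 and 11.80 in Naive_WT, and 12.04, 11.99, 11.53 and 11.77 in Naive_KO. It read 12.09, 11.88, 11.92 and 12.10 in DSS_WT, and 11.97, 12.10, 12.09 and 12.07 in DSS_KO. For Psmb6 each of these groups overlapped the others that it was compared with. Psmb7, the trypsin-like subunit, read 11.90, 11.77, 11.85 and 11.85 in Naive_WT, and 11.85, 11.85, 11.34 and 11.85 in Naive_KO. It read 12.01, 11.87, 11.94 and 11.98 in DSS_WT, and 11.92, 12.04, 11.96 and 12.12 in DSS_KO. Naive_KO replicate 15 was the lowest sample of both Psmb6 and Psmb7, and DSS_KO lay above Naive_KO in Psmb7 without overlap.

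Psmb8, which replaces Psmb5, read 8.53, 8.65, 8.70 and 8.90 in Naive_WT, and 12.45, 11.26, 12.71 and 10.51 in Naive_KO. With DSS it read 10.97, 9.12, 10.40 and 10.35 in DSS_WT, and 12.45, 11.93, 12.68 and 12.53 in DSS_KO. All Naive_WT samples were below all others, and Naive_KO spread over more than any group of a standard subunit. Psmb9, which replaces Psmb6, read 9.21, 9.21, 9.40 and 8.85 in Naive_WT, and 12.58, 10.90, 11.78 and 10.25 in Naive_KO. It read 11.00, 9.84, 10.89 and 10.78 in DSS_WT, and 12.45, 11.91, 12.88 and 12.49 in DSS_KO. The order of the groups was that of Psmb8, with Naive_WT lowest and DSS_KO overlapping Naive_KO. Psmb10, which replaces Psmb7, read 11.41, 11.10, 11.33 and 10.86 in Naive_WT, and 12.59, 11.92, 12.32 and 11.65 in Naive_KO. It read 12.23, 11.65, 12.13 and 12.17 in DSS_WT, and 12.80, 12.52, 12.92 and 12.70 in DSS_KO. Its span was the smallest of the 3 inducible genes, and Naive_WT was again below the other groups.

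**Figure D1:**
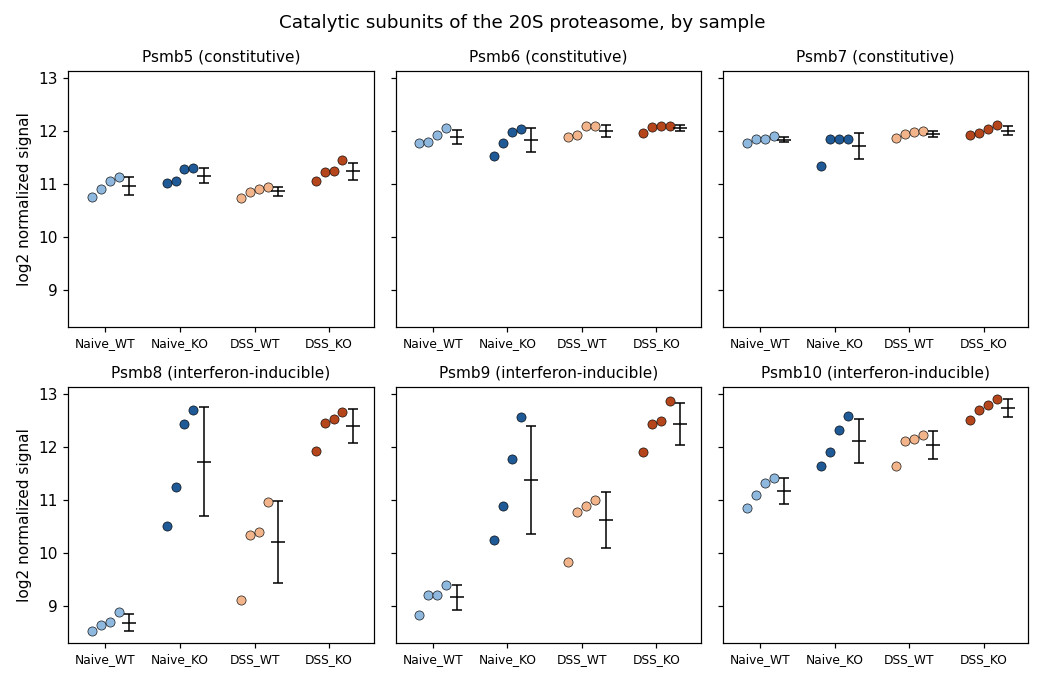
Log2 normalized signal of the 3 standard catalytic subunits (top) and of the 3 interferon-inducible subunits that replace them (bottom); each point is 1 sample, with 4 per group, and the bar beside them is the mean and SD. Naive_WT samples of Psmb8 lie between 8.53 and 8.90 and those of DSS_KO between 11.93 and 12.68, while the groups of Psmb6 and Psmb7 stay close to one another.

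In untreated mice, no tested constitutive subunit passed the test between genotypes, while all 3 inducible subunits were higher in Naive_KO. By limma, with the brightest probe of each gene, 0 of 30 members passed the thresholds of the study's methods (adjusted p under 0.01 and at least 1 on the log2 scale), against 0.656% of all probes tested. At an adjusted p under 0.05 there were 0 members higher and 0 lower, against 2.43% and 2.77% of all probes, and 5 members (16.7%) had an unadjusted p under 0.05, against 22.8% of all probes. The median log2 fold change of the members was 0.12 (-0.0011 over all probes), with 19 above 0 and 11 below. Groups did not overlap for 3 members (Psmb4, Psmd12 and Psmd13, all higher), or 10% of them, against 12.3% of all probes. The lowest adjusted p was that of Psmd12, a lid subunit, at 0.0949 (log2 fold change 0.39, SE 0.13). The 95% interval of the log2 fold change lay within -1 to 1 for 29 members, against 91.3% of all probes, so changes above 2-fold in either direction lay outside these intervals, which are not adjusted for the number of genes. The median half-width of the interval was 0.25 for the members, read from brightest probes, and 0.33 over all probes, dim ones included. The shares of members and of all probes, here and below, therefore differ in precision. In the same fit Psmb8 rose 8.22-fold (log2 fold change 3.04, SE 0.41, adjusted p 0.000603), Psmb9 4.63-fold (2.21, SE 0.38, adjusted p 0.0038) and Psmb10 1.92-fold (0.94, SE 0.19, adjusted p 0.0113). The adjusted p of Psmb10 was 0.054 with only the 2 naive groups in the fit. Psmb5 had a log2 fold change of 0.20 (interval -0.05 to 0.45), Psmb6 of -0.05 (-0.31 to 0.20) and Psmb7 of -0.12 (-0.36 to 0.12). Without Naive_KO replicate 15 the value of Psmb6 was 0.047 and that of Psmb7 0.0064.

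With DSS, all 3 inducible subunits were again higher in the Mbd2KO mice, and no constitutive one passed. Among the members 0 passed the study's thresholds (0.862% of all probes), and 0 were higher and 0 lower at an adjusted p under 0.05 (2.46% and 3.17% of all probes). Unadjusted, 5 members (16.7%) had a p under 0.05, against 22.2% of all probes. The median log2 fold change was 0.12 (-0.0034 over all probes), with 26 members above 0 and 4 below. Groups did not overlap for 3 members (Psmb5, Psma5 and Psmc5, all higher in DSS_KO), or 10%, against 14.7% of all probes. The 95% interval was within -1 to 1 for 29 members, against 89.4% of all probes. The exception was Psmd5, a chaperone in cap assembly, with a log2 fold change of 0.75 (interval 0.02 to 1.49, adjusted p 0.214). It read 6.37, 4.56, 6.23 and 5.71 in DSS_WT, and without the second of these, replicate 2, the log2 fold change was 0.37 (adjusted p 0.595). Psmb5 came closest to the threshold, 1.3-fold higher in DSS_KO (log2 fold change 0.38, SE 0.12, interval 0.14 to 0.63, adjusted p 0.0652). Its adjusted p ran from 0.0294, with arrays weighted by their quality, to 0.186 over the alternatives, and was under 0.05 in 4 of 10 settings and in 0 of 16 fits that left out a sample. Psmb6 and Psmb7 both had a log2 fold change of 0.06 (intervals -0.19 to 0.31 and -0.18 to 0.31). Psmb8 rose 4.57-fold in DSS_KO (log2 fold change 2.19, SE 0.41, adjusted p 0.00621), Psmb9 3.50-fold (1.81, SE 0.38, adjusted p 0.0117) and Psmb10 1.62-fold (0.69, SE 0.19, adjusted p 0.0429). The adjusted p of Psmb10 was above 0.05 in 8 of 16 fits that left out 1 sample each, from 0.0507 without DSS_KO replicate 6 to 0.148 without DSS_WT replicate 2, and also with median scaling or without the filter.

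**Figure D2:**
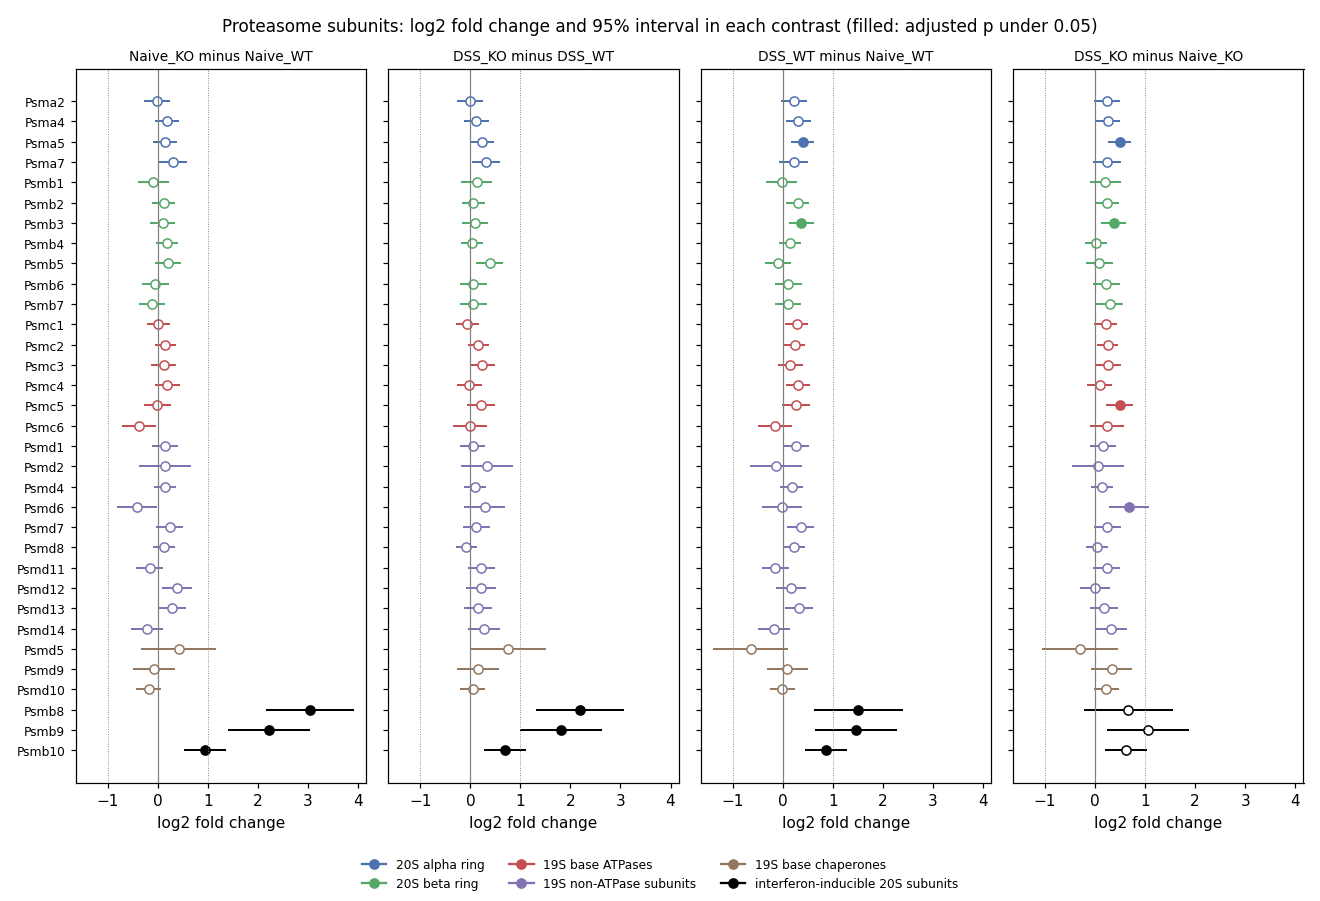
Log2 fold change (point) with its 95% interval (line) for the 30 tested constitutive subunits, coloured by their place in the particle, and for the 3 interferon-inducible subunits (black) in the 4 contrasts; filled points have an adjusted p under 0.05 and dotted lines mark -1 and 1. The constitutive subunits gather near 0, with filled points in the DSS contrasts for Psma5, Psmb3, Psmc5 and Psmd6, while Psmb8 and Psmb9 lie beyond 1 in the first 3 panels.

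With DSS, 2 constitutive subunits, read from their brightest probes, rose in wild-type mice at an adjusted p under 0.05. Psma5, an alpha ring subunit, rose 1.32-fold (log2 fold change 0.40, SE 0.10, adjusted p 0.0215), and Psmb3, a beta ring subunit without a cutting site, rose 1.29-fold (0.37, SE 0.11, adjusted p 0.0415). They made up 6.67% of the 30, against 5.71% of all probes, and 0 members were lower (4.75% of all probes). None passed the study's thresholds, which 1.74% of all probes did, and 12 (40%) had an unadjusted p under 0.05, against 26.3% of all probes. The median log2 fold change was 0.18 (-0.010 over all probes), with 21 members above 0 and 9 below. Groups did not overlap for 12 members (40%), all higher in DSS_WT, against 17% of all probes, and these included 4 of the 6 ATPases (Psmc1, Psmc2, Psmc4 and Psmc5). Before normalization the members' median signal per array also differed with treatment. It ran from 1844 to 2752 in Naive_WT and from 3198 to 3792 in DSS_WT. In the Mbd2KO mice it ran from 1804 to 2283 in Naive_KO and from 2895 to 4451 in DSS_KO. The exception was array 5R at 1973, while its namesake, array 5, had 2895. The part of these raw levels in the shifts of the members with DSS was not tested. The interval lay within -1 to 1 for 29 members, against 88.5% of all probes. Psmb8 rose 2.86-fold (adjusted p 0.0273), Psmb9 2.75-fold (adjusted p 0.0224) and Psmb10 1.82-fold (adjusted p 0.00928) in the same comparison. The adjusted p of Psmb8 was above 0.05 (up to 0.0711) without background correction, without the filter, or without DSS_WT replicate 1, 3 or 4 or Naive_WT replicate 9, 10 or 11. That of Psmb9 was above 0.05 (up to 0.0653) without the filter, or without DSS_WT replicate 1, 3 or 4 or Naive_WT replicate 12. Among the members, the call of Psmb3 was lost (adjusted p up to 0.126) in 8 of 16 fits that left out a sample (DSS_WT replicate 1, 3 or 4, Naive_WT replicate 10, 11 or 12, DSS_KO replicate 6 or 8), and that of Psma5 in 3 (DSS_WT replicate 3 or 4, Naive_WT replicate 10). The count of 2 members was 0 without DSS_WT replicate 3, DSS_WT replicate 4 or Naive_WT replicate 10, and 6 without Naive_KO replicate 15, which enters only the shared spread.

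In Mbd2KO mice, 4 members rose with DSS (13.3%, against 4.9% of all probes at this threshold) and 0 fell (4.52% of all probes). Psmd6, a lid subunit, rose 1.60-fold (log2 fold change 0.68, SE 0.18, adjusted p 0.0258). Psma5 rose 1.41-fold (0.49, SE 0.10, adjusted p 0.00726), Psmc5, one of the ATPases, 1.40-fold (0.49, SE 0.12, adjusted p 0.0189) and Psmb3 1.29-fold (0.37, SE 0.11, adjusted p 0.043). Again 0 passed the study's thresholds (1.72% of all probes), and 11 (36.7%) had an unadjusted p under 0.05, against 24.5% of all probes. The median log2 fold change was 0.23 (-0.016 over all probes), and 29 of 30 members were above 0, Psmd5 being below it at -0.30. Groups did not overlap for 9 members (30%), all higher, against 15.9% of all probes. The interval lay within -1 to 1 for 28 members, against 89.8% of all probes, the exceptions being Psmd5 and Psmd6. The inducible subunits did not pass here: Psmb8 had a log2 fold change of 0.67 (interval -0.20 to 1.53, adjusted p 0.333), Psmb9 of 1.06 (0.25 to 1.86, adjusted p 0.091) and Psmb10 of 0.62 (0.21 to 1.02, adjusted p 0.0519). The log2 fold change of Psmb8 ran from 0.26 to 0.99 with a sample left out, and its adjusted p was 0.106 or more in every fit. The adjusted p of Psmb9 was under 0.05 with all 18 arrays as separate replicates, with array weights and, at 0.0108 (log2 fold change 1.46), without Naive_KO replicate 13. That of Psmb10 was under 0.05 in 8 of 10 alternative settings, and at most 0.160 with a sample left out or a setting changed. The call of Psmd6 was lost without DSS_KO replicate 6 or 8 or Naive_KO replicate 14 or 15, and that of Psmc5 without DSS_KO replicate 8 or Naive_KO replicate 16, with only the 2 groups in the fit or with the mean of its probes. That of Psmb3 was kept in 5 of 16 fits that left out a sample (DSS_WT replicate 2 or 4, Naive_WT replicate 9 or 12, Naive_KO replicate 13), with an adjusted p up to 0.112 in the others, and was also lost without arrays 4 and 5 (their repeats 4R and 5R kept) or with only the 2 groups in the fit. The count of 4 members was 1 without DSS_KO replicate 8 and 2 without DSS_KO replicate 6 or without Naive_KO replicate 14, 15 or 16.

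The samples behind these members were as follows. Psma5 read 12.11, 12.02, 12.27 and 12.11 in Naive_WT and 12.53, 12.37, 12.55 and 12.65 in DSS_WT, so that all treated samples were above all untreated ones. In the Mbd2KO mice Psma5 read 12.45, 12.31, 12.11 and 12.19 in Naive_KO and 12.72, 12.78, 12.75 and 12.76 in DSS_KO, again without overlap. Psma5 has a second, dim probe, which 83.0% of the tested probes outshone; its log2 fold change was -0.25 (adjusted p 0.292) in wild-type mice and 0.42 (adjusted p 0.0821) in Mbd2KO mice, and the mean of both probes gave 0.074 in wild-type mice. Psmb3 read 12.31, 12.23, 12.19 and 11.97 in Naive_WT and 12.62, 12.39, 12.47 and 12.69 in DSS_WT. In the Mbd2KO mice it read 12.39, 12.39, 12.11 and 12.17 in Naive_KO and 12.58, 12.70, 12.64 and 12.62 in DSS_KO. Treated and untreated samples of Psmb3 were apart in both genotypes.

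Psmd6 was among the dimmer members, with 44.7% of the tested probes brighter. It read 7.50, 7.34, 8.06 and 7.57 in Naive_WT, and 7.44, 7.08, 6.94 and 7.34 in Naive_KO. With DSS it read 7.86, 7.69, 7.15 and 7.69 in DSS_WT, and 7.74, 8.15, 7.65 and 7.98 in DSS_KO. The wild-type groups overlapped and those of the Mbd2KO mice did not, and its second probe had a log2 fold change of 0.38 (adjusted p 0.0933) with DSS in the Mbd2KO mice. Psmc5 read 11.04, 11.01, 11.08 and 11.04 in Naive_WT, and 11.30, 11.16, 10.68 and 10.97 in Naive_KO. It read 11.34, 11.38, 11.13 and 11.36 in DSS_WT, and 11.38, 11.58, 11.49 and 11.61 in DSS_KO. DSS_KO was above Naive_KO in Psmc5 and its lowest sample was level with the highest of DSS_WT. Its second probe had a log2 fold change of 0.14 (adjusted p 0.448) with DSS in the Mbd2KO mice, so the rise stood in 1 of 2 probes. Psmb7 was the reverse case: its brightest probe had 0.29 (adjusted p 0.129), and the dimmest of its 4 probes 0.57 (adjusted p 0.0184). Psmd1, which did not pass with DSS in wild-type mice, has a second probe nearly as bright (3.40% of the tested probes brighter, against 3.28%). This second probe read 11.81 ± 0.11 in Naive_WT and 12.29 ± 0.091 in DSS_WT (mean and SD), without overlap. The brightest probe of Psmd1 read 11.98 ± 0.14 and 12.24 ± 0.15, with overlap, and a dimmer one 8.02 and 8.57, without.

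The sorted cells differed in their leukocyte messages between treated and untreated mice. Of 14 leukocyte markers 8 were tested, and Ptprc, which encodes the CD45 used in the sort, was not (its probes were detected on 0 to 3 arrays). With DSS all 8 had a log2 fold change above 0 in both genotypes, with a median of 1.69 in wild-type and 1.48 in Mbd2KO mice. At an adjusted p under 0.05, 8 of 8 were higher in wild-type mice (5.71% of all probes) and 7 of 8 in Mbd2KO mice (4.9% of all probes). The mean log2 signal of the 8 ran from 5.51 to 5.93 in Naive_WT, from 5.61 to 6.41 in Naive_KO, from 6.92 to 8.11 in DSS_WT and from 7.25 to 8.33 in DSS_KO. Macrophage lysozyme Lyz2, for example, had a log2 fold change of 1.88 in wild-type mice (adjusted p 0.0019). In the same wild-type comparison Psmb8, Psmb9 and Psmb10 had log2 fold changes of 1.51, 1.46 and 0.87. The part of the leukocyte messages in the rise of these 3 inducible subunits, in the changes of the exchanged pairs with DSS and in the rise of Psma5, Psmb3, Psmc5 and Psmd6 was not tested. Between genotypes, 6 of the 8 had a log2 fold change above 0 with DSS (median 0.34) and 6 of 8 without it (median 0.22). At an adjusted p under 0.05, 1 of 8 was lower in DSS_KO than in DSS_WT (Cd3g; 3.17% of all probes) and 1 of 8 higher in Naive_KO than in Naive_WT (Csf1r; 2.43% of all probes). Of 8 markers of stroma and endothelium, 5 were lower in DSS_KO than in DSS_WT at an adjusted p under 0.05 (3.17% of all probes; median log2 fold change -0.94), and 0 of 8 passed between the naive groups (median -0.42), while all 8 were below 0 in both. With DSS, all 8 were above 0 in wild-type mice (median 0.39), and 2 (25%, against 5.71% of all probes) were higher at an adjusted p under 0.05 (Cdh5 and Col1a1). In Mbd2KO mice 4 were above 0 and 4 below (median -0.0085), and 0 of 8 passed. The part of these markers in the differences of the constitutive and inducible subunits was not tested. The 8 epithelial markers had a median log2 fold change between -0.10 and 0.054 in the 4 contrasts, and 1 of them passed, lower in DSS_WT than in Naive_WT (4.75% of all probes). In such bulk samples fewer cells of a type and less RNA per cell cannot be told apart.

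Whether the genotype effect differed between treated and untreated mice was tested by the interaction term. In it 0 of 30 members and 0% of all probes passed the study's thresholds. Unadjusted, 3 members had a p under 0.05 (10% of them, against 10.7% of all probes), and their lowest adjusted p was 0.333, that of Psmd6 (log2 difference 0.70, interval 0.16 to 1.24). The 3 inducible subunits had interaction terms of -0.85 (Psmb8), -0.40 (Psmb9) and -0.25 (Psmb10), none with an adjusted p below 0.645. So neither set of subunits was shown to respond to the loss of Mbd2 differently with and without DSS.

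By place in the particle, the 4 alpha ring genes tested (Psma2, Psma4, Psma5 and Psma7) had a median log2 fold change with DSS of 0.27 in wild-type and 0.25 in Mbd2KO mice, all 4 above 0 in both. Their mean log2 signal was 12.07 ± 0.065 in Naive_WT, 12.22 ± 0.17 in Naive_KO, 12.36 ± 0.12 in DSS_WT and 12.52 ± 0.065 in DSS_KO (SD, n = 4). The 7 beta ring genes had medians of 0.11 and 0.22 with DSS, from -0.10 (Psmb5) to 0.37 (Psmb3) in wild-type mice and from 0.0094 (Psmb4) to 0.37 in Mbd2KO mice. The 6 ATPases, which form the unfolding ring, had medians of 0.25 and 0.24, and Psmc6, a dim probe, stood apart in wild-type mice at -0.15. The 10 non-ATPase subunits had medians of 0.18 and 0.17. The 3 base chaperones (Psmd5, Psmd9 and Psmd10), which help to assemble the cap and leave it, had medians of -0.0089 and 0.22, and Psmd5 stood apart from the other members at -0.64 in wild-type mice (adjusted p 0.254), or at -0.26 (adjusted p 0.630) without DSS_WT replicate 2. Between genotypes the medians of the 5 groups of genes lay from 0.061 (beta ring) to 0.18 (non-ATPase subunits) with DSS and from -0.079 (base chaperones) to 0.16 (alpha ring) without it.

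Over the 30 members, the mean log2 signal of a sample ran from 10.55 to 10.68 in Naive_WT, from 10.61 to 10.73 in Naive_KO, from 10.61 to 10.80 in DSS_WT and from 10.78 to 10.92 in DSS_KO. The group means were 10.60 ± 0.059, 10.66 ± 0.051, 10.72 ± 0.086 and 10.87 ± 0.064 (SD, n = 4). Treated and untreated Mbd2KO mice did not overlap in this mean, whereas each other pair of groups that differ in 1 factor did. For the 3 inducible subunits the group means, in the same order, were 9.68 ± 0.12, 11.74 ± 0.81, 10.96 ± 0.52 and 12.52 ± 0.29. Averaging over 30 genes narrows a spread more than averaging over 3, so the SDs of the means are not like for like. Among single members, the dim Psmd5 reached an SD of 0.82 in DSS_WT.

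**Figure D3:**
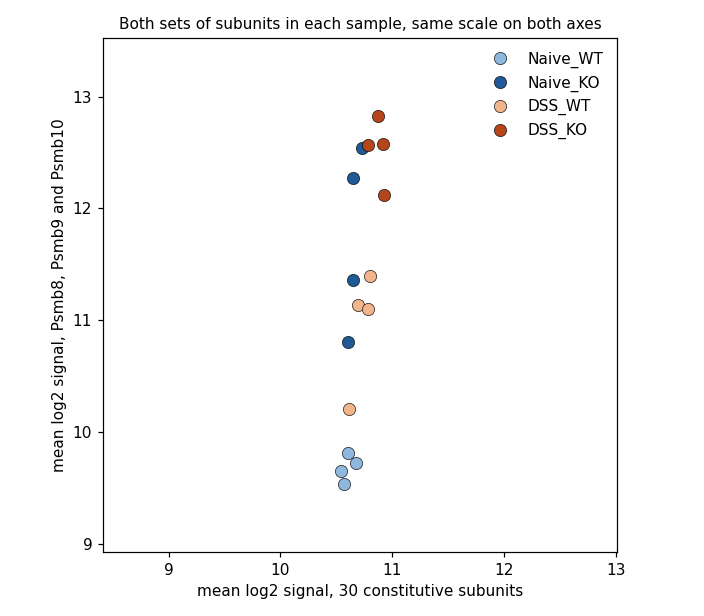
Mean log2 signal of the 30 constitutive subunits (horizontal) against that of Psmb8, Psmb9 and Psmb10 (vertical) in each of the 16 samples, with axes of equal scale. The samples span 10.55 to 10.92 horizontally and 9.53 to 12.83 vertically, so the points form a nearly upright column.

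The messages of each exchanged pair were also compared within each sample, as the log2 signal of an inducible subunit minus that of the subunit it replaces. Messenger RNA does not show which subunits were built into the proteasome. Because the probes differ, only changes of this difference between groups can be read. Psmb8 minus Psmb5 was -2.52, -2.11, -2.43 and -2.00 in Naive_WT, 1.17, -0.04, 1.66 and -0.51 in Naive_KO, 0.06, -1.62, -0.46 and -0.61 in DSS_WT, and 1.39, 0.71, 1.43 and 1.08 in DSS_KO. It was higher in Mbd2KO than in wild-type mice by 2.84 without DSS and by 1.81 with DSS, and higher by 1.61 in DSS_WT than in Naive_WT. The 4 samples of one group were above the 4 of the other in each of these comparisons. The change of Psmb9 minus Psmb6 was 2.26, 1.75 and 1.35 in the same comparisons, and that of Psmb10 minus Psmb7 was 1.06, 0.63 and 0.76, each without overlap. Of 12 tests, these 9 had an exact two-sided permutation p of 0.0286, the smallest that 4 samples against 4 allow, and 0.0381 after Benjamini-Hochberg adjustment over the 12. Between DSS_KO and Naive_KO the changes were 0.58, 0.83 and 0.33 (exact permutation p 0.371, 0.229 and 0.343), and the groups overlapped. With a sample left out, these changes ran from 0.22 to 0.94, from 0.48 to 1.17 and from 0.13 to 0.52. The comparisons share groups and are not independent. In the 9 comparisons without overlap the inducible subunit alone already separated the groups, so these p-values are not separate evidence of its rise. Leaving out 1 sample of Naive_WT, or DSS_WT replicate 2 for Psmb10 minus Psmb7 between the DSS groups, gave an exact permutation p of 0.0571 in some of these tests.

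The other genes of the pathway were counted by list at an adjusted p under 0.05, which with DSS 5.71% of all probes passed as higher and 4.75% as lower in wild-type mice, and 4.9% and 4.52% in Mbd2KO mice. Of 4 activators that dock on the core in place of the cap, 1 passed with DSS in each genotype (25%): Psme1, a subunit of PA28 that interferon-gamma also induces, rose by a log2 fold change of 0.63 in wild-type (adjusted p 0.0263) and 0.75 in Mbd2KO mice (adjusted p 0.0119). Between genotypes its brightest probe had 0.58 with DSS (adjusted p 0.0542) and 0.47 without (adjusted p 0.111), and its other probe 0.73 (adjusted p 0.00346) and 0.61 (adjusted p 0.011). Psme2, its partner in PA28, Psme3, the nuclear form, and Psme4, which is PA200, passed in none of the 4 contrasts. Among 4 factors that assemble the core, Pomp, which matures the beta ring, rose with DSS in wild-type mice (0.40, adjusted p 0.0358) and Psmg2, an alpha ring chaperone, fell by 0.43 on the log2 scale (adjusted p 0.0445), so that 1 of 4 was higher and 1 of 4 lower there, and none passed in the other contrasts. Of 7 proteins that bind the proteasome, 1 (14.3%) passed: Uchl5, a deubiquitinase of the cap, rose with DSS in Mbd2KO mice (0.43, adjusted p 0.0351). The probes of the inhibitor Psmf1 disagreed between DSS_KO and DSS_WT, with 0.32 (adjusted p 0.0990) for the brightest and -0.52 (adjusted p 0.0275) for the other. Of 8 ubiquitin genes and shuttles, 1 (12.5%) passed: Rps27a, a fusion of ubiquitin with a ribosomal protein, rose with DSS in wild-type mice (0.53, adjusted p 0.0439), and none passed elsewhere. Among 4 regulators, of which 1 (25%) passed, Nfe2l1 had log2 fold changes between -0.26 and 0.12 and passed in none of the contrasts, while Nfe2l2, the regulator of the oxidative stress response, fell by 1.10 on the log2 scale with DSS in wild-type mice (adjusted p 0.00908) and had -0.042 (adjusted p 0.937) in Mbd2KO mice, a difference with an adjusted p of 0.27.

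**Figure D4:**
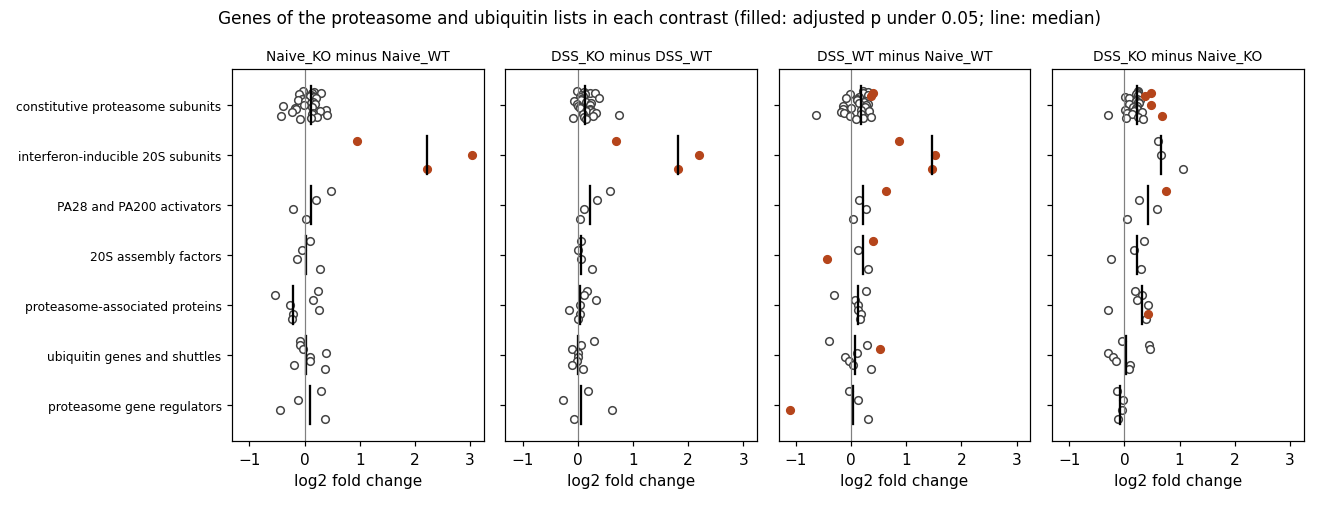
Log2 fold change of each gene (point) of 7 lists around the proteasome and the ubiquitin system in the 4 contrasts; filled points have an adjusted p under 0.05 and vertical lines are medians. Psmb8 and Psmb9 lie furthest to the right in the first 3 panels, while Psmb10 lies left of the constitutive Psmd5 (0.69 against 0.75) in the second, and the medians of the constitutive subunits are 0.12, 0.12, 0.18 and 0.23 from left to right.

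The probes of the exchanged subunits are placed as follows in the deposited table, whose genome build is not given in the sources used here and whose positions cannot be set beside the promoters above. The Psmb5 probe lies on chromosome 14 at 55235381 to 55235430 (minus strand), the Psmb6 probe on chromosome 11 at 70343427 to 70343476 (plus strand) and the brightest Psmb7 probe on chromosome 2 at 38446293 to 38446342 (minus strand). The Psmb9 probe lies on chromosome 17 at 34320616 to 34320665 (minus strand), and the table gives no position for the brightest Psmb8 probe. The brightest Psmb10 probe is listed on chromosome 8 at 108824923 to 108824972 (minus strand). The second Psmb10 probe is listed on the same strand at 108459785 to 108459924, far from the first. Which part of the transcript a probe meets is not stated there. A second probe of Psmb8 had log2 fold changes of 3.48 without DSS and 2.50 with DSS between genotypes, and the second probe of Psmb10 had 1.01 and 0.71, close to those of the brightest probes. The other 3 tested probes of Psmb7 had values from -0.28 to 0.03 between the naive genotypes and from 0.05 to 0.39 with DSS.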

How the data were processed

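Expression in sorted colon epithelial cells was measured on 18 Illumina MouseWG-6 arrays. The deposited values are mean bead intensities on a linear scale, which the authors' scanner software exported per the file headers without normalization or background subtraction. The deposited table also gives a detection p-value per probe, and the number of beads and the bead standard error of each signal. The bead numbers and bead standard errors were used only to describe the arrays. A further 36 of its per-sample columns were not used. The submitters' processing notes name lumi and limma without versions, and the genome build is not given in the sources used here.

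The neqc function (limma 3.58.1, R 4.3.3, offset 16) subtracted background with the help of 936 negative controls, normalized between arrays by quantiles and took log2. Arrays 4R and 5R were averaged with 4 and 5, from which they differed by less (SD of the log2 difference 0.194 and 0.236) than any other arrays of the group did (0.334 to 0.482 and 0.287 to 0.419); the labels do not explain the letter. Only probes detected (p-value below 0.05) on 4 arrays or more were tested, which leaves out transcripts near background. A gene was read from its brightest tested probe, and symbols were updated by Entrez identifier through a RefSeq table (29586 of 45281 probes matched).

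The 16 samples entered a single limma model of the 4 group means, and p-values were adjusted by the Benjamini-Hochberg method over all 21938 probes within each contrast. Differences between subunits of a pair were compared by exact permutation of 4 samples against 4. Values are given per sample for the exchanged catalytic subunits and for the 3 members with the largest rise or fall among those with an adjusted p under 0.05 in a contrast. The model was tested on simulated data. The number of arrays limits the precision. Alternatives changed the treatment of repeat arrays, the background, the scaling, the filter, the samples in the fit, the weights and the probe per gene, or left out 1 sample at a time. The members and lists were chosen with earlier results of these data known.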

Additional observations from a re-analysis of the deposited data

Results flagged for a closer look

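Naive_KO replicate 15 had a log2 signal of 11.34 for Psmb7, with the other 3 samples between 11.85 and 11.85, a gap of 0.993 of the range of its group. In Psmb10 minus Psmb7, DSS_WT replicate 2 stood at -0.22 with the other 3 samples between 0.19 and 0.22, a gap of 0.925 of the range. In Psmc5, DSS_WT replicate 3 stood at 11.13 with the others between 11.34 and 11.38, a gap of 0.835 of the range. Each is a sample far from the other 3 of its group. In all 60 sets of 4 samples were looked at, and chance flags about 1 in 20.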

How the results depend on the processing

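No paired analysis was possible because the replicate numbers are not shared between the groups. No member passed the study's thresholds in any contrast, or in the interaction where it was fitted, under 10 alternative settings or with any of the 16 samples left out. The count of members at an adjusted p under 0.05 depended on the setting. Between DSS_KO and DSS_WT it was 1 (Psmb5) instead of 0 with all 18 arrays as separate replicates, without arrays 4R and 5R, without background correction and with array weights. Between DSS_WT and Naive_WT it was 9 instead of 2 with all 18 arrays or without background correction, 7 with median scaling or array weights, 4 without the filter (36 genes tested), 0 with only the 2 groups in the fit, and 0 to 6 with a sample left out. Between DSS_KO and Naive_KO it was 7 instead of 4 with array weights, 2 with only the 2 groups, and 1 to 4 with a sample left out. With median scaling the median log2 fold change with DSS was 0.26 in wild-type and 0.31 in Mbd2KO mice, and under the other settings it differed from the reported value by less than the SD between samples. Psmb6 turned from -0.05 to 0.033 between the naive genotypes with array weights, and ran from -0.12 to 0.047 with a sample left out, while Psmb7 ran from -0.16 to 0.0064. Psma5 was at 0.074 (adjusted p 0.714) with DSS in wild-type mice with the mean of its probes, which disagree. With a sample left out, Psmb8 minus Psmb5 changed with DSS in wild-type mice by 1.37 to 1.93, Psmb9 minus Psmb6 by 1.24 to 1.57 there and by 1.93 to 2.62 between the naive genotypes, and Psmb10 minus Psmb7 by 0.65 to 0.86, by 0.87 to 1.26 and, between the DSS groups, by 0.53 to 0.71. The exact permutation p was 0.0571 in these without any 1 of the 4 Naive_WT samples (Psmb10 minus Psmb7 with DSS in wild-type mice without replicate 11 or 12) and, between the DSS groups, without DSS_WT replicate 2. The cause of these shifts was not tested. Where a group gave 3 samples, the smallest exact p was 0.0286. Dim probes (Psmd2, Psmd5, Psmc6 and Psmd9) limit what can be read of those members.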
